A study of Nothobranchius furzeri with 6 samples.

Results

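The miRNA families mir-26 and mir-101 were followed in the brain of Nothobranchius furzeri, the turquoise killifish, whose short life makes it a model of vertebrate ageing. They were taken by exact name from the deposited table of counts, as the rows nfu-mir-26 and nfu-mir-101, which are 2 of its 324 rows. All 6 libraries came from whole-tissue brain RNA of males of the strain MZM-04/10p aged 39 weeks and form 1 group, with no treatment, transgene or second age given in the labels. The levels, their spread and comparisons within libraries can therefore be read from these data, and a change with age, sex or strain cannot. The labels do not say that each library came from a separate animal, so the p-values cover no more than the spread among these 6 samples, which may be technical.

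Both families are best known as brakes on Ezh2, the enzyme of Polycomb repressive complex 2 that methylates histone H3 and keeps developmental genes silent. In mammals each binds the messenger RNA of Ezh2 and lowers its protein, and loss of either is known from tumours with high Ezh2. The genes of mir-26 lie in introns of the Ctdsp phosphatase genes, whose proteins help the repressor Rest to silence neuronal genes outside neurons. In zebrafish, miR-26b represses its own host gene ctdsp2 during neurogenesis. In mouse brain, miR-101 limits the excitability of developing hippocampal networks. Neither Ezh2 nor any other messenger RNA was measured in these libraries.

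The depth was 11924483 to 16597229 counts per library. Each row sums all reads that the authors assigned to a family name, without a split into paralogues or into the arms of the hairpin. A shift between paralogues such as miR-26a and miR-26b would therefore not be visible. Levels are given as CPM, the count scaled to a library total of 1e6, after scaling with edgeR's trimmed mean of M values (TMM), and were not divided by length because mature miRNAs are of nearly equal length. The libraries were ligated directly to RNA ends, a step that depends on sequence, so a ratio between families mixes abundance with that bias. All 5 neuronal marker families chosen for comparison (mir-124, mir-128, mir-132, mir-137 and mir-153) were present, with a summed level of 77836 to 128405 CPM. All rows of the other marker lists, muscle and blood included, were present too. The lists were chosen with earlier results of these data known, so presence is no check of the tissue.

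The mir-26 family was one of the main miRNAs of this brain. Its raw counts in libraries 1 to 6 were 1394860, 1684836, 1830334, 1550292, 1636558 and 1777908. As scaled levels these were 113343, 114387, 105300, 132320, 133562 and 145229 CPM, with a mean of 124024 ± 15278 CPM (SD, n = 6). It was the second most abundant row in each of the 6 libraries. Library 6 was highest and library 3 lowest, a 1.38-fold range, and no library lay between 114387 and 132320 CPM. The share of all counts, which uses the library total without a TMM factor, showed the same gap. It was 11.7%, 11.6% and 11.0% in libraries 1, 2 and 3 and 13.0%, 13.0% and 13.9% in libraries 4, 5 and 6. The exact (Clopper-Pearson) 95% interval ran from 105156 to 105444 CPM for library 3, the lowest, and from 145031 to 145427 CPM for library 6, the highest, so counting error was far smaller than the spread between libraries. These intervals cover counting error only. The profile over all rows with a mean of at least 10 counts, mir-26 included, divided in a similar way in part. The chi-square over degrees of freedom between libraries was 387 to 678 for pairs within libraries 1 to 3, 696 to 979 within libraries 4 to 6 and 829 to 2102 across the sets. The last 2 ranges overlap, and mir-26 is among the rows, so these values cannot show a split apart from mir-26. The levels of mir-132 and mir-30, given below, were split between the same sets. Both had an extreme r with mir-26, though mir-132 was also listed for Rest and mir-30 for its rank near mir-101. The sets were read from the levels of mir-26 itself. Listed for other reasons, mir-132b (4615 to 5259 against 5742 to 6213 CPM) and mir-133 (1156 to 1258 against 769 to 1075 CPM) did not overlap between the sets. Their r with mir-26 was 0.82 and -0.85. Among other listed rows, mir-9, mir-128, mir-214 and mir-7 did not overlap, while mir-124, mir-137, mir-138, mir-153, mir-204, mir-217, let-7 and mir-181 did. The share of all rows with such a gap was not counted, so these rows are no separate support for a split. A split of the libraries was not tested over all rows. The TMM factor also differed between the sets, at 1.01 to 1.05 in libraries 1 to 3 and 0.958 to 0.983 in libraries 4 to 6. The shares above, taken of the library total without this factor, had a smaller fold range than the scaled levels. The part of the scaling in the gap was not tested. The part of the wider profile in the level of mir-26 was not tested.

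The mir-101 family stood far lower. Its raw counts in libraries 1 to 6 were 105258, 137114, 126597, 96628, 85324 and 113775. As scaled levels these were 8553, 9309, 7283, 8247, 6963 and 9294 CPM, with a mean of 8275 ± 989 CPM (SD, n = 6). It took 0.827% ± 0.0970 of all counts. Libraries 2 and 6 were highest and library 5 lowest, a 1.34-fold range. The order of libraries was thus not that of mir-26: library 5 was second highest for mir-26 and lowest for mir-101. In library 5 the exact 95% interval of mir-101 was 6917 to 7010 CPM, and in library 2 it was 9260 to 9358 CPM.

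**Figure D1:**
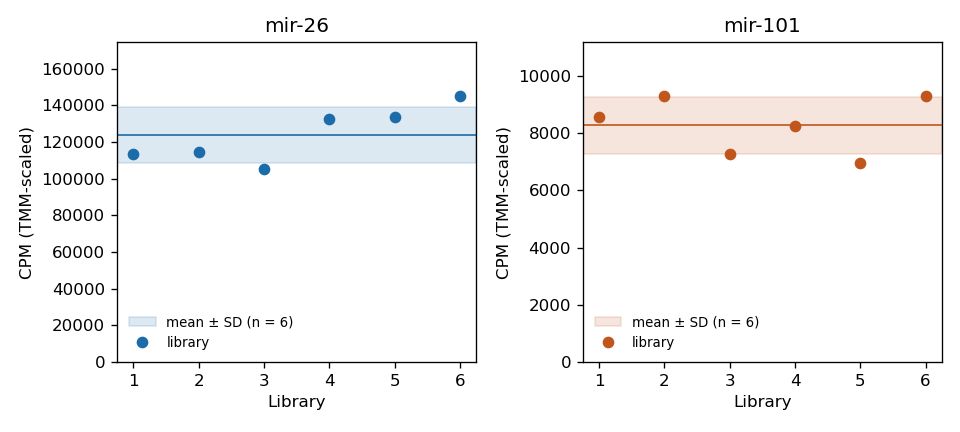
Levels of mir-26 (left) and mir-101 (right) in each of the 6 libraries, in TMM-scaled CPM on axes that start at 0. Points are libraries, the line is the mean and the band is the SD (n = 6). For mir-26 libraries 4 to 6 lie at 132320 to 145229 CPM and libraries 1 to 3 at 105300 to 114387 CPM, while for mir-101 libraries 2 and 6 are highest and library 5 lowest.

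Within libraries, mir-26 exceeded mir-101 in 6 of 6. The ratio of their counts was 13.3, 12.3, 14.5, 16.0, 19.2 and 15.6 in libraries 1 to 6. The mean log2 ratio was 3.91 ± 0.23 (SD, n = 6), and a two-sided permutation test over all 64 sign flips gave an exact p = 0.03125, which 6 libraries cannot go below. The Benjamini-Hochberg adjusted p over all 25 ratios computed for the 2 families was 0.0340. The family of 25 held 6 ratios to rows chosen for their rank in these libraries, which are no evidence of a difference. Without those 6, each of the other 19 had an adjusted p of 0.03125. The adjusted p could stay this low only because all 19 reached the smallest p, so it does not rank large ratios above small ones. For mir-26 that smallest p follows from its second place in each library, below mir-181 alone. For mir-101, in 17th or 18th place in each library, it likewise restates only which rows lay above or below it in 6 of 6. The same holds wherever this sign-flip p is given below. The lists behind the 19 were chosen with earlier results of these data known, so their p-values are not free of that choice. Library 5 had the widest gap between the families and library 2 the narrowest.

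The place of each family among the other rows is given as a description, with no test for rows chosen by their rank. Above mir-26 stood only mir-181, at 291914 ± 10918 CPM. Below it came let-7 at 87977 ± 3406 CPM and neuronal mir-128 at 65311 ± 14644 CPM (SD, n = 6 for each). Each of these 3 rows lay on its own side of mir-26 in 6 of 6 libraries. The mir-101 family was 18th by mean level, in 17th place in library 1 and 18th in the other 5. Its nearest neighbours by mean level differed from it by less than the spread between libraries. Against neuronal mir-153 (8708 ± 2179 CPM) the log2 ratio of mir-101 was -0.04 ± 0.23, with mir-101 higher in 3 of 6 libraries. Against mir-204, a family of choroid plexus and retina (8136 ± 396 CPM), it was 0.02 ± 0.22, with mir-101 higher in 4 of 6. One place further out, mir-30 at 11057 ± 989 CPM was higher and mir-132b at 5453 ± 650 CPM lower than mir-101 in 6 of 6 libraries, an order that the choice by rank favours.

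Other families known in mammals to target Ezh2 include let-7, mir-124, mir-137, mir-138, mir-214 and mir-217, and each of these 6 had a row. The list is not complete, so the shares and ranks among its rows hold for this list only. Together mir-26 and mir-101 took 13.2% ± 1.10 of all counts, and these other 6 rows took 9.75% ± 0.573 (SD, n = 6). Most of the counts of the 8 rows came from a single pair. The mir-26 row held 53.8% ± 3.46 of them and let-7, a family that promotes differentiation, held 38.4% ± 2.97. The mir-101 row held 3.61% ± 0.434.

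Among the 8 rows, mir-101 came next in level after mir-26 and let-7. The neuronal family mir-138, which limits dendritic spine growth in rat neurons, stood at 4234 ± 1267 CPM, with its lowest level of 2442 CPM in library 6 and its highest of 5991 CPM in library 5. Neuronal mir-124 stood at 4069 ± 599 CPM. The family mir-137, which acts on Ezh2 in neural stem cells of the adult mouse, stood at 622.1 ± 145 CPM and mir-217 at 529.4 ± 60.4 CPM. The family mir-214, known from skeletal muscle where it targets Ezh2 in mouse, was at 11.3 ± 2.39 CPM. The mir-101 row was above mir-124 by a log2 ratio of 1.03 ± 0.26 and above mir-138 by 1.02 ± 0.57, in 6 of 6 libraries each (exact sign-flip permutation p = 0.03125, adjusted p = 0.0340 for both). The margin over mir-138 was as small as 0.22 in 1 library. Of the 6 other rows, let-7 alone was above mir-101, and mir-26 was above all 6, in each of the 6 libraries.

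**Figure D2:**
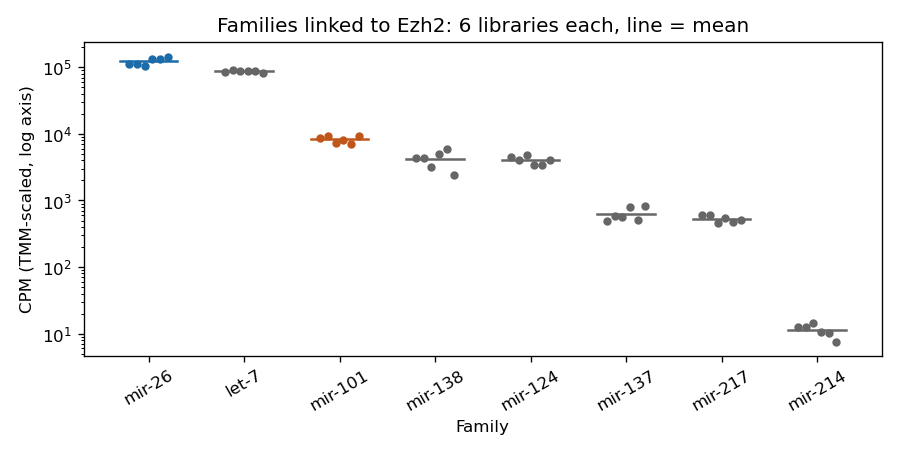
Levels of the 8 listed families linked to Ezh2, in TMM-scaled CPM on a log axis, with 1 point per library (1 to 6 from left to right) and a line at the mean. The mir-26 family (blue) and let-7 lie above the rest, and mir-101 (orange) comes next at 8275 CPM.

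In vertebrates miR-144 begins with nearly the same bases as miR-101, so that the target sites of the pair overlap. The mir-144 row, a red blood cell family, stood at 124.1 ± 56.0 CPM. Its counts were 2016, 2821, 1688, 1370, 394 and 1748 in libraries 1 to 6. The mir-101 row was above it by a log2 ratio of 6.23 ± 0.77 and in 6 of 6 libraries (exact sign-flip permutation p = 0.03125, adjusted p = 0.0340). Library 5 was lowest for both.

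The families tied to Rest, the repressor on which the hosts of mir-26 act, were also measured. In mammals mir-9 represses Rest itself, mir-124 represses Ctdsp1, and mir-132 is induced by neuronal activity and held down by Rest. The levels were 52186 ± 3512 CPM for mir-9 and 19494 ± 2960 CPM for mir-132 (SD, n = 6). The mir-26 row was above mir-9 by a log2 ratio of 1.24 ± 0.09 and above mir-132 by 2.67 ± 0.05, each in 6 of 6 libraries (exact sign-flip permutation p = 0.03125, adjusted p = 0.0340 for both). Against mir-124 the log2 ratio was 4.93 ± 0.36. The SD of 0.05 for mir-132 was smaller than that of mir-26 itself between libraries, which was 0.18.

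Neither family was called as more variable between libraries than features of like abundance. The log2 SD was 0.18 for mir-26 and 0.18 for mir-101, against a median of 0.27 over the 214 features that averaged 10 counts or more and of 0.18 over the 47 features of at least 1000 CPM. Of those 47, 21 had a lower log2 SD than mir-26 and 20 a lower one than mir-101. An intercept-only negative binomial model at edgeR's trended dispersion called 3.74% of the 214 features variable at an adjusted p under 0.05, and 0 of the 2 families. The adjusted p by this edgeR test was 0.99988 for both. At an unadjusted p under 0.05 the edgeR test called 8.41% of features. The unadjusted value was 0.968 for mir-26 and 0.980 for mir-101. By the same edgeR test mir-221, between the 2 families in abundance at 27219 CPM, had an unadjusted p of 0.235 at a log2 SD of 0.51. A log2 SD of 0.18 was thus far below what the test could call, so the result is no evidence of stability. DESeq2 marked 1.4% of features as dispersion outliers, and neither family was among them. None of the 6 other listed rows linked to Ezh2 passed edgeR's test either, with mir-138 nearest at an unadjusted p of 0.444.

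**Figure D3:**
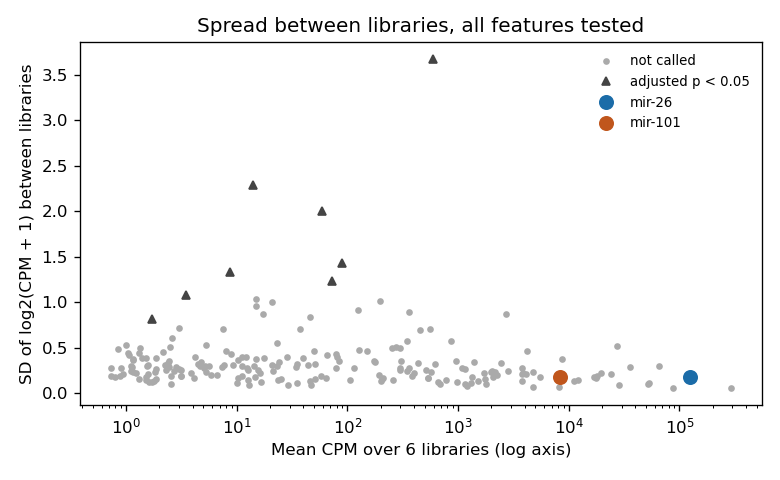
SD of log2(CPM + 1) between the 6 libraries against mean CPM on a log axis, for the 214 features tested. Triangles are the features called variable by edgeR's test, and the large points are mir-26 (blue) and mir-101 (orange), which lie at 0.18 each, among the other abundant rows.

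The levels of the 2 families showed no detectable relation to each other over the 6 libraries. Pearson's r of log2(CPM + 1) was 0.18 (exact permutation p = 0.696 over 720 pairings) and Spearman's rho was 0.09 (exact permutation p = 0.919). Even the sign of r was not settled by these data. It was -0.10 with plain CPM, -0.23 with mir-26 and mir-181 taken out of the total, and -0.78 without libraries 3 and 6, the 2 farthest from the median of mir-26.

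The families whose levels were most like that of mir-26 over the 6 libraries were sought among 134 named families with a mean of at least 100 counts. The highest was mir-132, with r = 0.99 on log2(CPM + 1), and its levels in libraries 1 to 6 were 16875, 17608, 16274, 21745, 21010 and 23450 CPM. Libraries 4 to 6 were again above libraries 1 to 3, and within both sets the order was that of mir-26 except that libraries 4 and 5 changed places. Next came mir-9 with r = 0.96, then mir-723 with 0.91, mir-8 with 0.88 and mir-29, a family studied in ageing brain, with 0.84. At the other end stood mir-214 with -0.97, mir-11 with -0.93 and mir-30 with -0.92. The mir-30 level was 11775 to 12095 CPM in libraries 1 to 3 and 9849 to 10764 CPM in libraries 4 to 6. The median r over the 134 families was -0.05, with 7 families over 0.8 and 6 under -0.8. These values describe the same 6 libraries, were picked for their size out of 134, and carry no p.

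The r of mir-26 with mir-132 was 0.97 to 0.99 over the scalings tried and at least 0.98 without any single library. These checks reuse the 6 libraries from which mir-132 was picked, and were chosen after seeing the data. They show only that r did not rest on 1 scaling or 1 library. The count ratio, which needs no scaling, describes the same libraries. Of the 134 families, mir-132 had the steadiest count ratio to mir-26, with a log2 SD of 0.05 against a median of 0.30, followed by mir-9 with 0.09 and mir-132b with 0.10. The r with mir-9 rested more on the scaling, and was 0.84 in plain CPM and 0.74 with mir-26 and mir-181 taken out of the total. With that same total, r was 0.81 for mir-723, 0.78 for mir-8 and 0.70 for mir-29.

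For mir-101 the most similar family was mir-218, a family of motor neurons and other neurons in vertebrates, with r = 0.97. Its levels in libraries 1 to 6 were 1286, 1372, 945.4, 1144, 861.5 and 1266 CPM. As for mir-101, library 5 was lowest, library 3 next and library 2 highest. Next came mir-676 with r = 0.96, mir-190 with 0.94, the row named lsy-6 with 0.94 and the row named mir-1027 with 0.92. The lowest values were -0.90 for mir-370, -0.89 for mir-103 and -0.89 for mir-7147. Of these, mir-103 had r = -0.66 in plain CPM, and mir-370 had -0.76 with mir-26 and mir-181 taken out of the total. For mir-7147 r was -0.93 to -0.89 over the scalings tried. The median over the 134 families was 0.03, with 15 families over 0.8 and 5 under -0.8. The r with mir-218 was 0.97 to 0.98 over the scalings tried and at least 0.94 without any single library. These checks too reuse the 6 libraries from which mir-218 was picked. By the count ratio, the steadiest partner of mir-101 was the oligodendrocyte family mir-338 with a log2 SD of 0.08, followed by mir-301 with 0.10 and mir-218 with 0.11, against a median of 0.29.

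**Figure D4:**
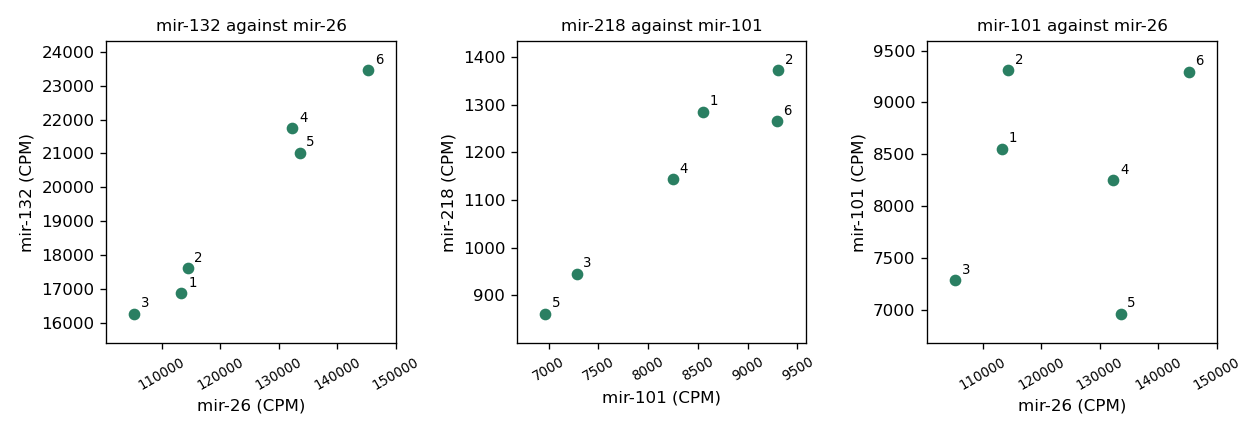
Levels in CPM of mir-132 against mir-26 (left), mir-218 against mir-101 (middle) and mir-101 against mir-26 (right), with 1 numbered point per library and axes that do not start at 0. The first 2 panels show the most similar family of each, chosen for r of 0.99 and 0.97, and the right panel has r of 0.18.

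Summed levels of 8 lists of cell type markers, and the total count, were compared with each family in 18 correlations. None passed after Benjamini-Hochberg adjustment for r or for rho, and the lowest adjusted p was 0.250 by exact permutation for r. Unadjusted, 2 of the 18 had an exact permutation p under 0.05 for r and 0 of the 18 for rho. The oligodendrocyte list (mir-219 and mir-338) had r = 0.89 with mir-101 over 6 libraries, at an exact permutation p of 0.0264 and an adjusted p of 0.250. Its rho was 0.77, at an exact permutation p of 0.103 and an adjusted p of 0.490. With the 2 libraries farthest from the median of mir-101 left out, r was 0.59. Nearly all of this sum was mir-338, which had r = 0.88 with mir-101, while mir-219 had r = 0.10. The muscle list (mir-1, mir-133 and mir-499) had r = -0.87 with mir-26, at an exact permutation p of 0.0278 and an adjusted p of 0.250. Here rho was -0.71, at an exact permutation p of 0.136 and an adjusted p of 0.490, and r was -0.92 with libraries 3 and 6 left out. The summed muscle level was lowest in library 6 at 796.8 CPM and highest in library 2 at 1295 CPM, with all 3 of its rows present. Most of it was mir-133, with r = -0.85, and mir-1 had r = -0.50.

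The neuronal, red blood cell and vessel wall lists and the total count did not reach an unadjusted p under 0.05. The neuronal list had r = 0.75 with mir-26, at an exact permutation p of 0.0792 and an adjusted p of 0.356. For rho the value was 0.83, at an exact permutation p of 0.0583 and an adjusted p of 0.490, and r was 0.67 with libraries 3 and 6 left out. Its members did not share a direction: r with mir-26 was 0.99 for mir-132, 0.66 for mir-128, which made up most of the sum, 0.64 for mir-137, 0.41 for mir-153 and -0.70 for mir-124. The red blood cell list (mir-144 and mir-451) had r = 0.76 with mir-101, at an exact permutation p of 0.0514 and an adjusted p of 0.308. Its rho was 0.77, at an exact permutation p of 0.103 and an adjusted p of 0.490, and r was 0.60 with the 2 farthest libraries left out. The red blood cell sum was lowest in library 5 at 191.4 CPM, where mir-101 was lowest too, and highest in library 1 at 625.4 CPM. The vessel wall list had r = 0.65 with mir-101, at an exact permutation p of 0.144 and an adjusted p of 0.520. Its rho was 0.71, at an exact permutation p of 0.136 and an adjusted p of 0.490, and r was 0.65 with the 2 farthest libraries left out. Within it, endothelial mir-126 had r = 0.86, mir-143 had 0.48 and mir-145 had -0.59. In whole brain tissue, fewer cells of a type and less RNA per cell cannot be told apart, and the part of cell makeup in the spread of either family was not tested. The total count had r = -0.64 with mir-26, at an exact permutation p of 0.189 and an adjusted p of 0.567. Its rho was -0.31, at an exact permutation p of 0.564 and an adjusted p of 0.846, and r was -0.41 with libraries 3 and 6 left out.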

How the data were processed

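Small RNA of killifish brain was measured in 6 libraries of 1 group. The authors deposited raw counts per miRNA family, with 1 column per library. Tools named in the submitters' processing notes are BWA 0.7.12-r1039, SAMtools 1.3.1-9, Trimmomatic 0.36 and bcl2fastq 1.8.4. Not given in the sources used here are their roles, the genome build, the miRNA annotation and the treatment of reads with several matches.

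Counts were scaled with edgeR 4.0.16 (TMM factors 0.958 to 1.05). Variation between libraries was tested by the goodness of fit of an intercept-only model over 214 rows with a mean of at least 10 counts, with Benjamini-Hochberg adjustment, since 1 group has no contrast. DESeq2 1.42.0 was an alternative. Ratios and correlations used exact permutation tests on log2(CPM + 1). The procedures were tested on simulated data. For the variation test the simulated extra spread was far above that of either family, so the simulation does not cover a spread of their size. Families most like each member were the 5 named families with the highest and the 3 with the lowest r. Library numbers follow accession order and only name libraries. In each of the 15 pairs of libraries the counts differed beyond sampling noise (lowest chi-square over degrees of freedom 387), so no library was dropped as a repeated deposit. At this depth the check cannot tell whether libraries share an animal or an RNA sample. The members and lists were chosen with earlier results of these data known.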

Additional observations from a re-analysis of the deposited data

Results flagged for a closer look

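Dixon's criterion was applied to 20 quantities over the 6 libraries: the levels and shares of mir-26 and mir-101, their ratio, and the levels of 15 families compared with them. It marked 0 of the 20, where about 1 in 20 would be marked by chance.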

How the results depend on the processing

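With mir-181 left out of the total, the mean level was 174519 CPM for mir-26 and 11689 CPM for mir-101, and with mir-26 left out it was 9441 CPM for mir-101, because the total shrank. DESeq2 size factors and plain CPM moved neither mean level by more than 1 SD. These scalings were set to the same average library size, so the mean could hardly move and this is no check of it. The correlation of the 2 families was 0.18 as reported, 0.17 with DESeq2 size factors, and changed sign to -0.10 with plain CPM, -0.23 without mir-26 and mir-181 in the total and -0.78 without libraries 3 and 6. The cause was not tested. The count of variable features was 8 as reported, 3 as DESeq2 dispersion outliers, 6 to 10 under the other filters and without scaling, and 6 to 9 when any single library was left out. Neither family was called by edgeR under any of these settings, with an adjusted p of at least 0.9993 in each edgeR fit. DESeq2, run only on all 6 libraries with the filter of 10 counts, called neither family. The log2 ratio of mir-26 to mir-101 was 3.91 from raw counts as well, and 23 of 25 ratios passed without the pseudocount. Library scaling cancels in a ratio within a library, and the pseudocount was small against these levels. These results could therefore hardly differ and are no check of the ratios. Without the 6 rows chosen by rank, 19 of 19 passed. With plain CPM, 0 of the 18 correlations with marker lists and depth passed after adjustment. Alternatives for the most similar families, and for the other ratios raw counts and the set without rows chosen by rank, were chosen after seeing the data. The spread between libraries was 12.3% of the mean for mir-26 and 11.9% for mir-101, far above counting error, so the number of libraries and not the depth limited precision. No comparison between groups, paired or not, was possible because all libraries belong to 1 group. Only rows were compared within libraries.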
